A study of Arabidopsis with 8 samples.

Results

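The plastid-encoded genes for ribosomal proteins, RNA polymerase subunits and housekeeping proteins of Arabidopsis were followed in leaves with and without a rat neuronal nitric oxide synthase (nNOS) transgene, each well watered or under drought. The members were the probe sets that the platform annotation pairs with a single plastid locus whose symbol begins with rps, rpl or rpo, or is one of the named housekeeping genes (accD, clpP, matK and the ycf1, ycf2, ycf15 and orf77 reading frames). The rule gave 22 genes, each with 1 probe set, of 22746 probe sets without controls, and of 69 plastid genes with a single gene ID. They were 8 genes of the small ribosomal subunit, 7 of the large subunit, 4 of the polymerase, and accD, clpP and matK. Probe sets for rpl2, rpl23, rps7, rps12, ycf1 and ycf2, which lie in both copies of the inverted repeat and carry 2 gene IDs, were no members and were added only as an alternative. The annotation used here listed no probe set for ycf15 or orf77.

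RNA was measured on 8 Affymetrix ATH1 arrays, which read messenger RNA by hybridization to short oligonucleotide probes, with 2 arrays in each of 4 groups. nNOS drought and nNOS control leaves came from Col-0 plants that carried the nNOS gene behind the constitutive 35S promoter of cauliflower mosaic virus, and WT drought and WT control leaves from Col-0 plants without it. Water was withheld in the drought groups from an age of 2 weeks, and control plants were well watered. According to the labels the leaves were taken after 14 d, from at least 20 seedlings, whereas the methods give a shorter period. The design text and the methods state that RNA of 2 transgenic lines was pooled, while the extraction label names 1 line, and the sources do not settle which holds. Replicates were separate samples of leaves, each taken from many seedlings according to the methods, and no source used here says whether they were grown as separate cultures, so each p-value measures only the spread among these samples. The annotation listed no probe set for the rat transgene, and the genotype labels were not checked on it.

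Chloroplasts keep a small genome that encodes part of their own gene expression machinery, alongside genes of the photosystems. That genome is read by a bacterial-type plastid-encoded polymerase (PEP), built from the rpoA, rpoB, rpoC1 and rpoC2 products and steered by sigma factors of nuclear origin, and by a phage-type nuclear-encoded polymerase (NEP). In leaves PEP makes most transcripts of the photosystems, NEP is the main polymerase of rpoB, rpoC1, rpoC2, accD and chiefly of clpP, and many ribosomal protein genes can be read by both.

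Values are log2 signals as deposited, so that a difference of 1 is a 2-fold change. The median signal of the arrays lay between 4.92 and 5.08. The 24 spiked poly-A control probe sets averaged 8.98 and 9.40 on the nNOS control arrays and 6.04 to 6.88 on the other 6, and the 25S ribosomal RNA control was at 12.11 and 12.18 against 10.60 to 11.22. The 18 hybridization control probe sets averaged 9.93 and 10.32 on the nNOS control arrays and 8.82 to 9.19 on the other 6. The signal of the 3′ probe set of GAPDH minus that of its 5′ probe set, a measure of RNA quality, was 0.64 and 0.87 in nNOS drought leaves, 1.06 and 1.45 in nNOS control leaves, 0.64 and 0.78 in WT drought leaves, and 1.32 and 1.02 in WT control leaves. All 4 drought arrays were below all 4 control arrays in this measure, whose part in the comparisons with drought was not tested. RNA was amplified with a kit that primes on poly(A), whereas most plastid transcripts have no stable poly(A) tail, so the signals measure the part of each transcript that this step captured. Every comparison with the nNOS control arrays runs along this difference in the controls, whose part in the results was not tested. Of the leaf markers, LHCB4.1 and RCA were listed and averaged 12.97 to 13.24 on each array. The 2 root markers listed averaged 5.32 to 5.75 on each array, the 2 anther markers listed averaged 2.36 to 3.25, and no seed marker was listed. In nNOS control versus WT control the leaf marker LHCB4.1 was higher by 0.35 (adjusted p = 0.022), and the root marker BGLU23, at -0.36 (adjusted p = 0.0301), and the anther gene ATA27, at -1.33 (adjusted p = 0.000709), were lower, while RCA at 0.09, EXPA7 at 0.22 and A9 at 0.12 did not pass (adjusted p = 0.578, 0.345 and 0.555). The part of these markers in the results was not tested. A smaller number of plastids and less RNA per plastid cannot be told apart in these bulk samples.

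Under well-watered conditions most of the 22 genes had less signal in nNOS plants. In nNOS control versus WT control, 14 members were lower and 3 were higher at a limma adjusted p of at most 0.05, where 17.9% of all probe sets were lower and 13.0% higher. A member was called when it also differed by 2-fold or more, and 7 were called lower (rps2, rpl14, rpl16, rpl22, rpoC1, accD and clpP) and 1 was called higher (rpl20), against 1.18% and 0.972% of all probe sets. The median log2 fold change of the members was -0.61, beside 0.01 over all probe sets and -0.12 over the other 47 plastid genes. Of those other 47 genes, 20 were lower and 11 higher, 9 and 5 of them called. They include 21 genes of the photosystems and the large Rubisco subunit, whose median was 0.17. Log2 fold changes ran from -2.17 to 1.55 in the 47 genes and from -1.52 to 1.26 in the members. The genes ndhK, ndhA, atpA, cemA, ndhJ and ycf4 fell further than any member, and psaJ, psbT and petL rose further. The decrease was therefore not particular to the members. In 16 of the 22 members both nNOS control arrays lay below each of the other 6 arrays, a pattern found in 18.5% of all probe sets, and in 2 members they lay above, against 17.2%. The poly-A control probe sets moved the other way in this comparison, by a mean log2 difference of 2.31, and the 25S ribosomal RNA control by 1.10.

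**Figure D1:**
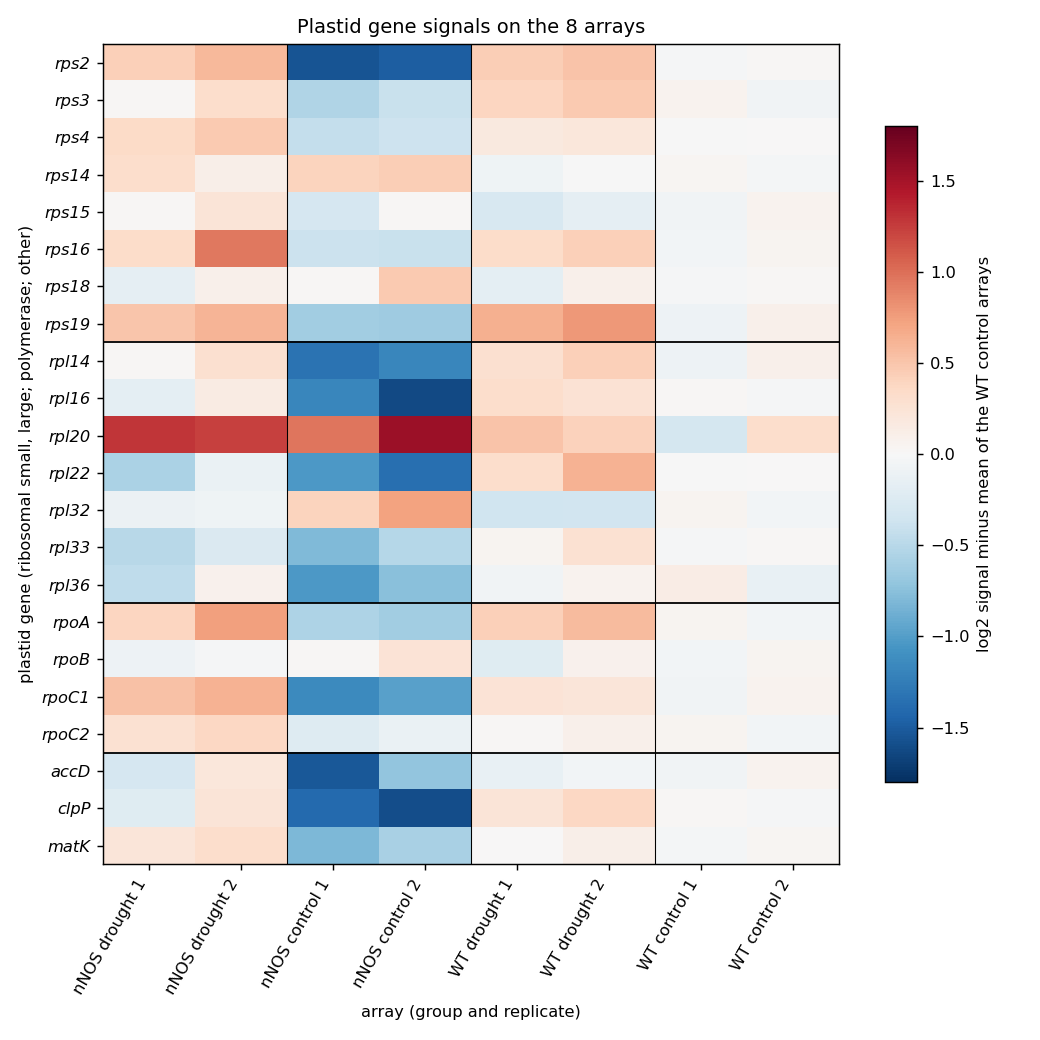
Each cell gives the log2 signal of 1 plastid gene (rows, grouped by role) on 1 of the 8 arrays (columns), minus the mean of the 2 WT control arrays, with red above and blue below that mean. The 2 nNOS control columns hold most of the dark blue cells, with rps2 at 4.97 and 5.04 against a WT control mean of 6.53, while rpl20 is red on all 4 nNOS arrays.

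Of the 8 small-subunit genes, rps2, rps3, rps4 and rps19 were lower in nNOS control leaves than in WT control leaves, rps14 was higher, and 3 did not pass, with a median log2 fold change of -0.40. The gene rps2, which codes for a protein of the ribosome's small subunit, had log2 signals of 6.96 and 7.12 in nNOS drought leaves, 4.97 and 5.04 in nNOS control leaves, 6.97 and 7.05 in WT drought leaves, and 6.51 and 6.55 in WT control leaves. Both nNOS control arrays were below every other array and 2.87-fold below WT control (log2 fold change -1.52, SE 0.105, limma adjusted p = 1.7e-05). The ribosomal gene rps19 had 8.66 and 8.78 in nNOS drought leaves, 7.54 and 7.52 in nNOS control leaves, 8.80 and 8.95 in WT drought leaves, and 8.08 and 8.25 in WT control leaves. These groups did not overlap between nNOS control and WT control (log2 fold change -0.64, SE 0.111, adjusted p = 0.00178). At the other end, rps15 had 6.30 and 6.52 in nNOS drought leaves, 5.98 and 6.31 in nNOS control leaves, 5.99 and 6.12 in WT drought leaves, and 6.22 and 6.35 in WT control leaves. The nNOS control and WT control arrays of rps15 overlapped, and the log2 fold change of -0.14 had a 95% interval of -0.44 to 0.16.

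The smaller differences among these genes did not all run the same way. The genes rps3 and rps4 were lower by log2 fold changes of -0.46 (adjusted p = 0.0162) and -0.40 (adjusted p = 0.012), small beside that of rps2. The adjusted p of rps3 was 0.0547 without nNOS control replicate 1 and 0.097 without WT control replicate 1, and that of rps4 was 0.0522 and 0.0601 without WT control replicate 1 and replicate 2. The gene rps14 is read together with the photosystem I genes psaA and psaB by PEP. It was higher by 0.42 (SE 0.11, adjusted p = 0.0149), from a dim probe set with a mean of 4.46 in nNOS control leaves and 4.04 in WT control leaves, and without WT control replicate 2 the adjusted p was 0.0884. For rps16 the log2 fold change was -0.39 (adjusted p = 0.104), with both nNOS control arrays, at 6.30 and 6.29, below those of WT control, at 6.63 and 6.74. For rps18 it was 0.25 (adjusted p = 0.269), with 7.64 and 8.10 in nNOS control leaves and 7.60 and 7.65 in WT control leaves.

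All 7 large-subunit genes passed the adjusted p, 5 lower and 2 higher, with a median log2 fold change of -0.89. The gene rpl16, for a protein of the large subunit, had log2 signals of 9.31 and 9.63 in nNOS drought leaves, 8.30 and 7.85 in nNOS control leaves, 9.79 and 9.74 in WT drought leaves, and 9.50 and 9.46 in WT control leaves. Its nNOS control arrays lay 2.64-fold below WT control although they differed from each other more than the WT control arrays did (log2 fold change -1.40, SE 0.155, adjusted p = 0.000159). Its neighbour rpl14 had 9.02 and 9.29 in nNOS drought leaves, 7.67 and 7.83 in nNOS control leaves, 9.30 and 9.44 in WT drought leaves, and 8.92 and 9.09 in WT control leaves. Here too the nNOS control arrays were below all others (log2 fold change -1.26, SE 0.128, adjusted p = 0.000112). The genes rpl22, rpl36 and rpl33 fell by log2 fold changes of -1.20, -0.89 and -0.66 (adjusted p = 0.000512, 0.00328 and 0.00388). The product of rpl33 is dispensable in tobacco under normal growth.

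The members rpl20 and rpl32 went the other way. The gene rpl20 had 8.81 and 8.76 in nNOS drought leaves, 8.50 and 9.07 in nNOS control leaves, 8.05 and 7.94 in WT drought leaves, and 7.21 and 7.85 in WT control leaves. All 4 nNOS arrays were above all 4 WT arrays, and nNOS control exceeded WT control 2.39-fold (log2 fold change 1.26, SE 0.212, adjusted p = 0.00147). The arrays of both control groups differed from each other, with an SD of 0.408 for nNOS control leaves and 0.455 for WT control leaves. The 2-fold call of rpl20 ended without nNOS control replicate 2 (log2 fold change 0.97) and without WT control replicate 1 (0.93). The smallest difference of the class was that of rpl32, with 10.75 and 10.78 in nNOS drought leaves, 11.26 and 11.58 in nNOS control leaves, 10.50 and 10.51 in WT drought leaves, and 10.91 and 10.81 in WT control leaves. The nNOS control arrays of rpl32 were above every other array (log2 fold change 0.55, SE 0.121, adjusted p = 0.0059).

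The genes for PEP itself were divided. The gene rpoC1, for the β′ subunit, had log2 signals of 7.46 and 7.56 in nNOS drought leaves, 5.78 and 5.95 in nNOS control leaves, 7.18 and 7.15 in WT drought leaves, and 6.86 and 7.00 in WT control leaves. Its nNOS control arrays were below every other array and 2.09-fold below WT control (log2 fold change -1.07, SE 0.11, adjusted p = 0.000118). The difference was less than 2-fold, and the call ended, after each of the 3 other normalizations, at -0.93 (quantile), -0.96 (centring on array medians) and -0.89 (cyclic loess), and without nNOS control replicate 1 (-0.98) or, by a margin under the rounding, WT control replicate 2, with the adjusted p at most 0.00256 in all 5. The gene rpoA, for the α subunit, had 9.53 and 9.88 in nNOS drought leaves, 8.59 and 8.52 in nNOS control leaves, 9.57 and 9.72 in WT drought leaves, and 9.19 and 9.10 in WT control leaves. It fell by less (log2 fold change -0.59, SE 0.129, adjusted p = 0.00575), with no overlap between the groups.

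The remaining polymerase genes did not pass. The gene rpoC2, for the β″ subunit, had 6.71 and 6.81 in nNOS drought leaves, 6.21 and 6.31 in nNOS control leaves, 6.46 and 6.53 in WT drought leaves, and 6.48 and 6.39 in WT control leaves. The nNOS control arrays of rpoC2 were the lowest of the 8, but the log2 fold change against WT control was -0.17 (SE 0.104, adjusted p = 0.231). The gene rpoB, for the β subunit, had 2.25 and 2.32 in nNOS drought leaves, 2.36 and 2.58 in nNOS control leaves, 2.12 and 2.42 in WT drought leaves, and 2.29 and 2.39 in WT control leaves. Its probe set was dimmer than all but 8.5% of probe sets, its nNOS control and WT control arrays overlapped, and the log2 fold change of 0.13 had a 95% interval of -0.16 to 0.41, so a difference was not detectable at this signal.

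All 3 remaining genes were lower. The gene clpP codes for a catalytic subunit of the Clp protease, which degrades proteins in the chloroplast stroma. It had log2 signals of 10.88 and 11.33 in nNOS drought leaves, 9.70 and 9.50 in nNOS control leaves, 11.33 and 11.47 in WT drought leaves, and 11.11 and 11.08 in WT control leaves. The nNOS control arrays were 2.81-fold below WT control and below all others (log2 fold change -1.49, SE 0.146, adjusted p = 9.4e-05). The gene accD codes for a subunit of the plastid acetyl-CoA carboxylase, the first committed enzyme of fatty acid synthesis. It had 6.34 and 6.85 in nNOS drought leaves, 5.12 and 5.93 in nNOS control leaves, 6.51 and 6.60 in WT drought leaves, and 6.58 and 6.71 in WT control leaves. Both nNOS control arrays of accD were below the other 6, with the widest gap between them among the members (log2 fold change -1.12, SE 0.231, adjusted p = 0.00437). Its 2-fold call rested on 1 array, since the log2 fold change was -0.72 without nNOS control replicate 1 (adjusted p = 0.0143), and it also ended after quantile normalization (-0.99) and cyclic loess (-0.95). The gene matK, for a maturase that helps to splice plastid introns, had 10.46 and 10.55 in nNOS drought leaves, 9.43 and 9.66 in nNOS control leaves, 10.24 and 10.34 in WT drought leaves, and 10.21 and 10.27 in WT control leaves. It fell 1.62-fold (log2 fold change -0.69, SE 0.114, adjusted p = 0.0013).

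**Figure D2:**
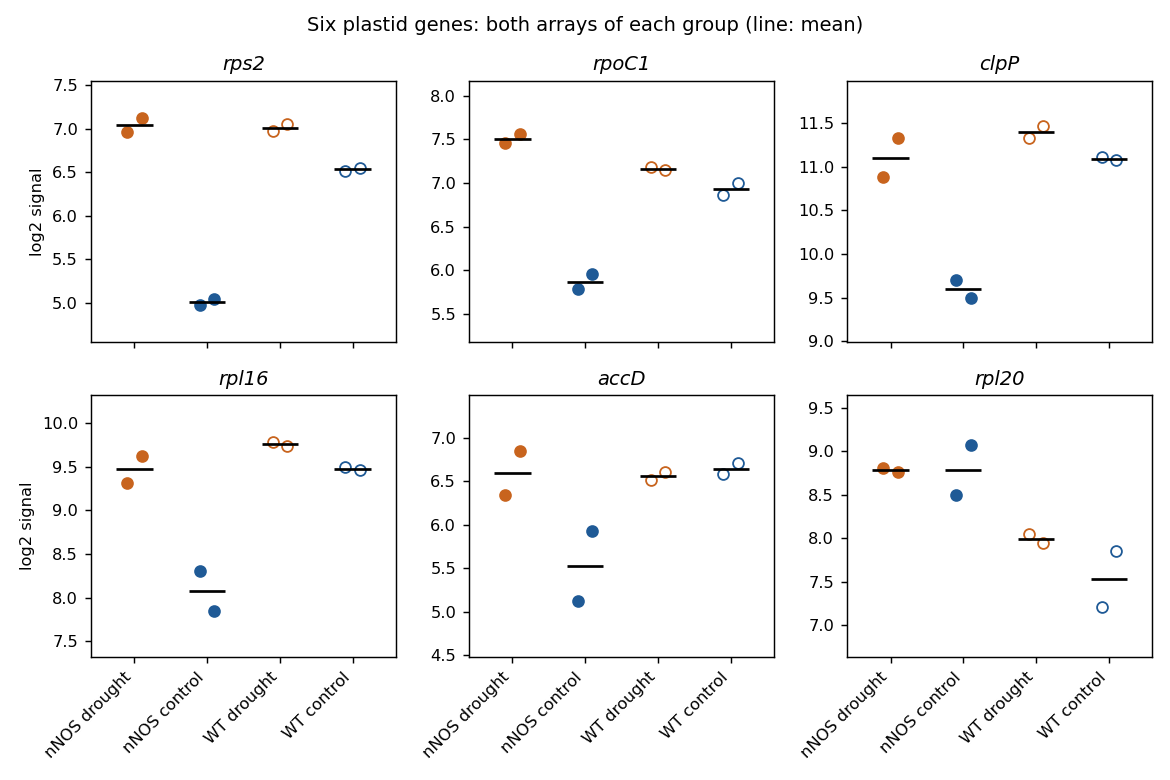
The log2 signal (vertical axes, each spanning the same range) of 6 plastid genes is given for both arrays of each group, with filled points for nNOS, open points for WT, orange for drought and blue for control, and the mean as a line. For rps2, rpoC1, clpP, rpl16 and accD the nNOS control points are the lowest, while for rpl20 the 4 nNOS points, from 8.50 to 9.07, lie above the WT points.

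Most of these genes were higher after drought in nNOS plants. In nNOS drought versus nNOS control, 15 members were higher and 1 was lower at the adjusted p of 0.05, where 14.0% and 10.8% of all probe sets were, and 9 were called higher and none lower, against 0.809% and 1.16%. The median log2 fold change of the members was 0.83, beside -0.02 over all probe sets and 0.49 over the other 47 plastid genes. Log2 fold changes ran from -0.65 to 2.03 in the members and from -1.71 to 2.21 in those 47 genes. This comparison shares the nNOS control arrays with that of the well-watered genotypes, and the direction of one is not independent of the other. The poly-A control probe sets changed by a mean of -2.62 and the 25S ribosomal RNA control by -1.05, and the 3′ minus 5′ difference of GAPDH, at 0.64 and 0.87 in nNOS drought leaves, against 1.06 and 1.45 in nNOS control leaves, moved with them.

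The 9 members called were rps2, rps16, rps19, rpl14, rpl16, rpoA, rpoC1, accD and clpP. The increase of rps2 was 4.09-fold (log2 fold change 2.03, SE 0.105, adjusted p = 9.4e-07) and that of rpoC1 was 3.13-fold (1.64, SE 0.11, adjusted p = 5.4e-06). The gene clpP rose by 1.51 (SE 0.146), rpl14 by 1.41 (SE 0.128), rpl16 by 1.39 (SE 0.155), rps19 by 1.19 (SE 0.111) and rpoA by 1.15 (SE 0.129). For accD the log2 fold change was 1.07 (adjusted p = 0.007) and for rps16 it was 1.03 (adjusted p = 0.00163), each with nNOS drought arrays that differed by more than those of most members. Without nNOS control replicate 1 the log2 fold change of accD was 0.67, and without nNOS drought replicate 2 it was 0.82 and did not pass (adjusted p = 0.074). The 2-fold calls of accD and rps16 ended after quantile normalization (0.97 and 0.91) and cyclic loess (0.93 and 0.87), that of rps16 also after centring (0.99) and without nNOS drought replicate 2 (0.72), and that of rpoA without the same array (0.97). The adjusted p of rpl36, which rose by 0.70, was 0.116 without nNOS drought replicate 2 and 0.0616 without nNOS control replicate 1. Below the fold threshold, matK, rpl22, rps4, rps3 and rpoC2 rose by 0.96, 0.85, 0.81, 0.64 and 0.50. The gene rpl32 fell by 0.65 (SE 0.121, adjusted p = 0.00311). In rpl20 the log2 fold change was -0.00, with a 95% interval of -0.47 to 0.46, and rps14, rps15, rps18, rpl33 and rpoB, with log2 fold changes of -0.20, 0.27, -0.28, 0.28 and -0.18, did not pass.

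**Figure D3:**
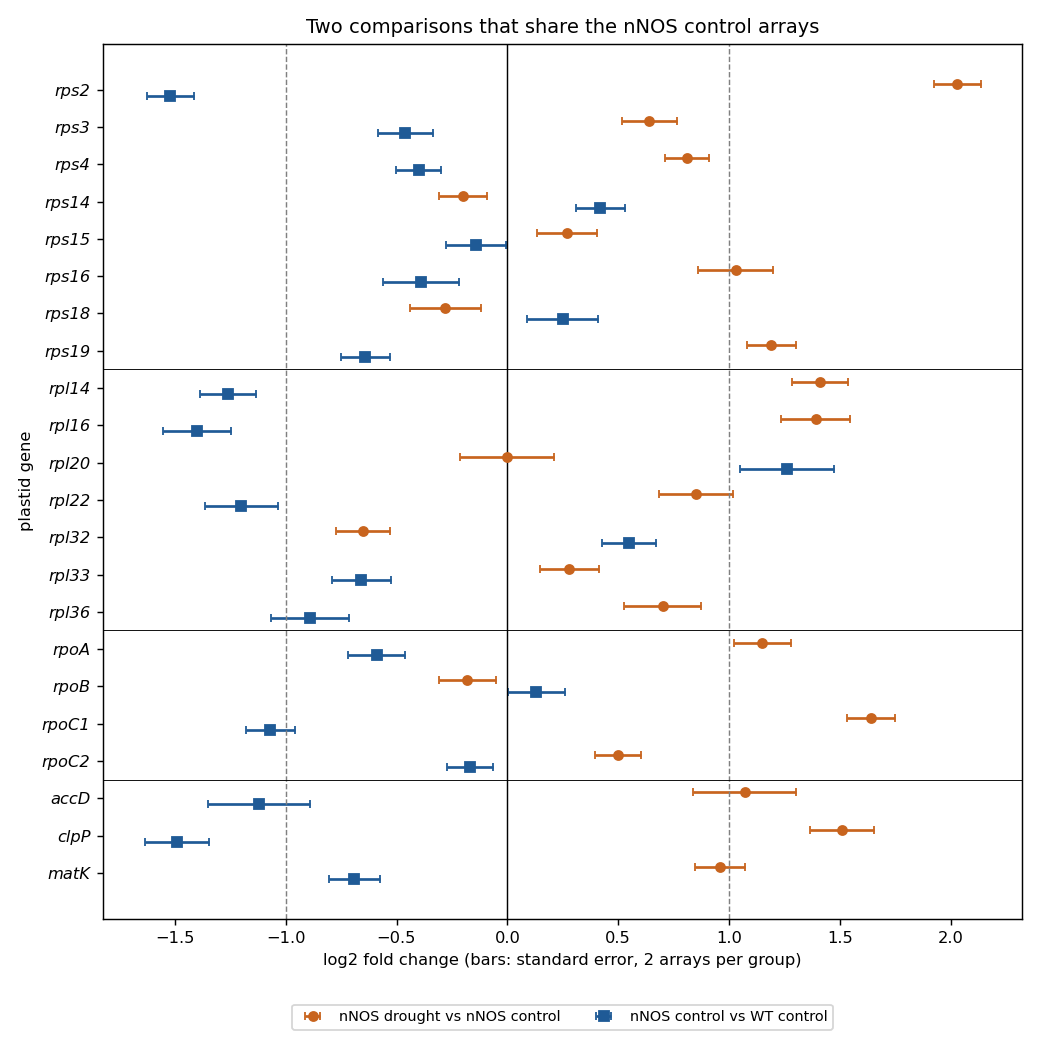
The log2 fold change of each plastid gene (rows, grouped by role) is given with its standard error as a bar, in orange circles for nNOS drought versus nNOS control and in blue squares for nNOS control versus WT control, and dashed lines mark a size of 1. The orange points run up to 2.03 and the blue points down to -1.52, both at rps2, and both comparisons use the nNOS control arrays.

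Fewer members passed in WT plants. In WT drought versus WT control, 3 members (rps2, rps19 and rpoA) were higher and none lower at the adjusted p, where 5.97% and 4.92% of all probe sets were, and by limma none was called in either direction, against 0.677% of all probe sets. At an unadjusted p under 0.05 there were 8 members, 7 of them higher, where 28.4% of all probe sets passed. The median log2 fold change of the members was 0.21, beside -0.04 over all probe sets. The gene rps19 rose by 0.71 (SE 0.111, adjusted p = 0.00412), rpoA by 0.50 (SE 0.129, adjusted p = 0.0339) and rps2 by 0.48 (SE 0.105, adjusted p = 0.0175). Without any 1 of the 4 WT arrays rpoA (adjusted p = 0.115 to 0.209) and rps2 (adjusted p = 0.0702 to 0.142) no longer passed, and without WT drought replicate 2 rps19 did not either (adjusted p = 0.0585). The lowest value was that of rpl32, at -0.36 (adjusted p = 0.0827), and that of clpP was 0.31 (95% interval -0.01 to 0.63). With both nNOS control arrays left out of the fit, 4 members were higher, 1 was lower and none was called.

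Few members separated the genotypes under drought. In nNOS drought versus WT drought, 2 members were lower (rpl22 and rpl33) and 1 was higher (rpl20) at the adjusted p, where 7.00% and 3.68% of all probe sets were, and by limma none was called, against 0.0879% of all probe sets. At an unadjusted p under 0.05 there were 7 members, 5 of them higher, where 29.9% of all probe sets passed. The median log2 fold change of the members was 0.03, beside 0.04 over all probe sets, and the poly-A control probe sets differed by a mean of 0.50. The genes with the largest decreases in well-watered nNOS plants had log2 fold changes of 0.03 for rps2 (95% interval -0.20 to 0.26) and -0.30 for clpP (95% interval -0.62 to 0.03). The gene rpl20 was higher by 0.79 (SE 0.212, adjusted p = 0.0406), rpl22 was lower, at -0.82 (SE 0.166, adjusted p = 0.0171), and rpl33 was lower, at -0.54 (SE 0.133, adjusted p = 0.0303). None of these passed when any single drought array was left out, with adjusted p of 0.137 to 0.197 for rpl20, 0.0554 to 0.117 for rpl22 and 0.0881 to 0.178 for rpl33.

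A few members kept the genotypes apart with and without drought. All 4 nNOS arrays were below all 4 WT arrays in 2 members, rpl22 and rpl33, a pattern of 12.1% of all probe sets, and above them in 2 others, rps14 and rpl20, against 9.16%. The gene rpl22 had 8.79 and 9.24 in nNOS drought leaves and 8.32 and 8.00 in nNOS control leaves, against 9.68 and 9.98 in WT drought leaves and 9.35 and 9.37 in WT control leaves. The gene rpl33 had 8.08 and 8.32 in nNOS drought leaves and 7.78 and 8.06 in nNOS control leaves, against 8.63 and 8.85 in WT drought leaves and 8.56 and 8.60 in WT control leaves. With rps14 and rpl20 these made 4 of 22 members, a share near that of all probe sets.

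The drought response itself differed between the genotypes in part of the members. The interaction, the log2 response to drought in nNOS minus that in WT, was positive and passed the adjusted p in 7 members and was negative in none, where 1.89% and 1.75% of all probe sets passed, and 5 members were also called higher, against 0.312% of all probe sets. Of the other 47 plastid genes 15 passed with a positive interaction and 1 with a negative one, 9 of them called higher, with a median of 0.41 beside 0.55 over the members. The 5 members called were rps2 at 1.55 (SE 0.149, adjusted p = 0.00114), rpoC1 at 1.41 (SE 0.156, adjusted p = 0.00188), clpP at 1.20 (SE 0.207, adjusted p = 0.0142), rpl16 at 1.11 (SE 0.219, adjusted p = 0.023) and rpl14 at 1.05 (SE 0.181, adjusted p = 0.0142). The other two were matK at 0.91 and rps4 at 0.61. For accD the interaction was 1.16 but did not pass (SE 0.327, adjusted p = 0.0771). It was a sixth call with dim probe sets left out (adjusted p = 0.0339), with array weights (0.0476), with trend and robust moderation (0.0112) and with the replicate number as a block (0.0365), and without nNOS control replicate 2 it was 1.56 (adjusted p = 0.0135). The interactions of rps2 and rpoC1 passed with any single array left out. That of clpP did not pass without any 1 of the WT arrays (adjusted p = 0.0557 to 0.0776), and that of rpl14 without nNOS drought replicate 2, WT control replicate 2 or either WT drought array (adjusted p = 0.0609 to 0.083). Those of rpl16, matK and rps4 did not pass without any 1 of the nNOS drought and WT arrays (adjusted p = 0.0523 to 0.106, 0.0597 to 0.0908 and 0.094 to 0.184). The 2-fold call of rpl14 also ended after quantile normalization (0.99), after cyclic loess (0.98) and without nNOS control replicate 1 (0.97), that of rpl16 without nNOS control replicate 2 (0.88), and that of clpP without nNOS drought replicate 2 (0.97). The number called fell to 2 without nNOS drought replicate 2, WT control replicate 2, WT drought replicate 1 or WT drought replicate 2, and to 3 without WT control replicate 1. The poly-A control probe sets had an interaction of -1.81.

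Grouped by the polymerase known to read them, the members did not fall into clean classes. Of the 5 NEP members, rpoC1, accD and clpP were lower in nNOS control leaves than in WT control leaves, and rpoB and rpoC2 did not pass, with a median log2 fold change of -1.07. The PEP members moved in opposite directions, matK lower and rps14 higher. The 15 members with no class given, all of them ribosomal genes except rpoA, held 10 lower and 2 higher, with a median of -0.59. Among 21 genes of the photosystems and the large Rubisco subunit that PEP reads, 4 were lower and 8 higher, with a median of 0.17, and log2 fold changes of 1.55 for psaJ, 1.40 for psbT, 1.25 for psbN and -1.30 for psbH. The median of the NEP members minus that of these genes was -1.24, and it was -0.79 with only rpoB, rpoC1, rpoC2 and accD taken as NEP members. The 21 genes held none of the atp genes for ATP synthase, the pet genes for the cytochrome b6f complex or the ndh genes for the NDH complex. Log2 fold changes of the atp genes were all negative, from -1.76 for atpA to -0.16 for atpE. Those of the pet genes ran from -1.28 for petB to 1.32 for petL, and those of the ndh genes from -2.17 for ndhK to 1.05 for ndhD. The class difference therefore holds only for the genes listed. No test was made between the classes, and their ranges overlapped.

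**Figure D4:**
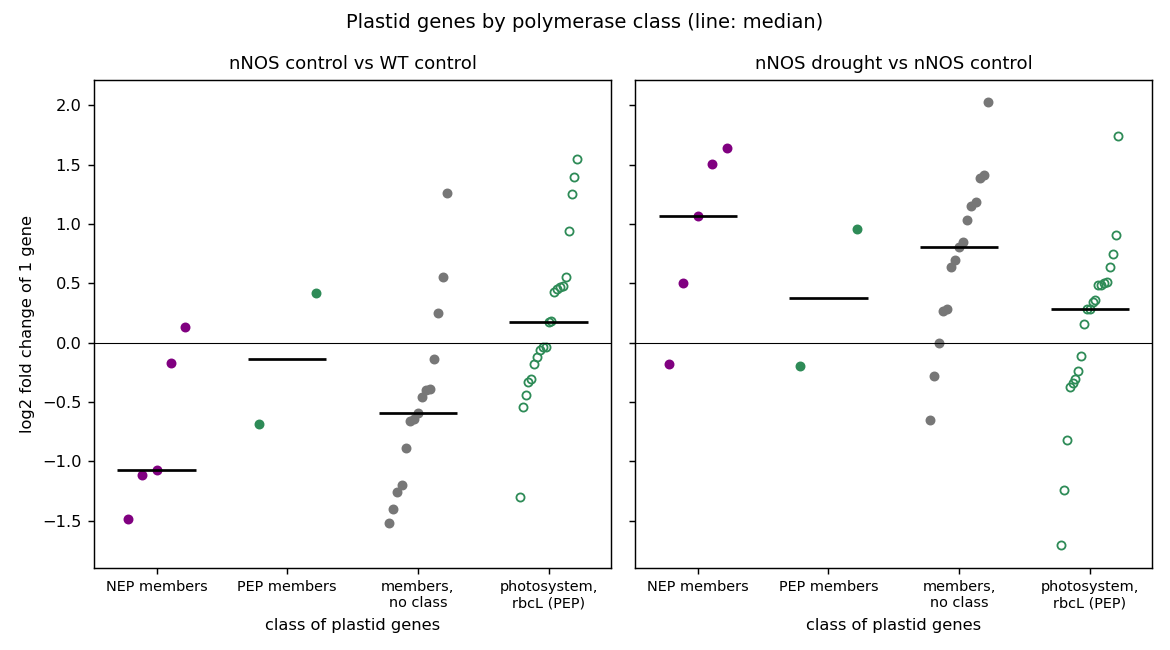
Each point is the log2 fold change of 1 plastid gene, in nNOS control versus WT control on the left and nNOS drought versus nNOS control on the right, by class (NEP members, PEP members, members with no class given, and photosystem and Rubisco genes read by PEP), with the class median as a line. The medians on the left are -1.07, -0.14, -0.59 and 0.17, and the points of the classes overlap.

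Position on the plastid genome gave a second grouping, since many of these genes are transcribed together. The ribosomal gene cluster that ends in rpoA held 7 members, in map order rps19, rpl22, rps3, rpl16, rpl14, rpl36 and rpoA. All 7 were lower in nNOS control leaves than in WT control leaves, 3 of them called, with log2 fold changes from -1.40 to -0.46 and a median of -0.89. Of all probe sets 17.9% were lower in this comparison and 1.18% were called lower. All 7 cluster members were also higher in nNOS drought leaves than in nNOS control leaves, 4 of them called, with log2 fold changes from 0.64 to 1.41. Here 14.0% of all probe sets were higher and 0.809% were called higher. In each of the 7 the nNOS control arrays were below all other arrays, a pattern of 18.5% of all probe sets. Outside the cluster 7 of 15 members were lower and 3 higher, with a median of -0.39. The 7 genes share transcripts and are not independent of each other.

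Elsewhere neighbours differed. The genes rpoB, rpoC1 and rpoC2 are read as 1 unit and lie next to rps2. In nNOS control versus WT control the log2 fold change of rpoC1 was -1.07 and that of rps2 -1.52, while that of rpoC2 was -0.17, and no difference was detectable in rpoB at its signal. In the run of rpl33, rps18, rpl20 and clpP, which is broken only by part of rps12 between rpl20 and clpP, the log2 fold changes were -0.66, 0.25, 1.26 and -1.49. Whether the genes of this run share transcripts was not examined. The adjacent measured genes rpl20 and clpP differed in direction, although the call of rpl20 ended when nNOS control replicate 2 or WT control replicate 1 was left out.

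**Figure D5:**
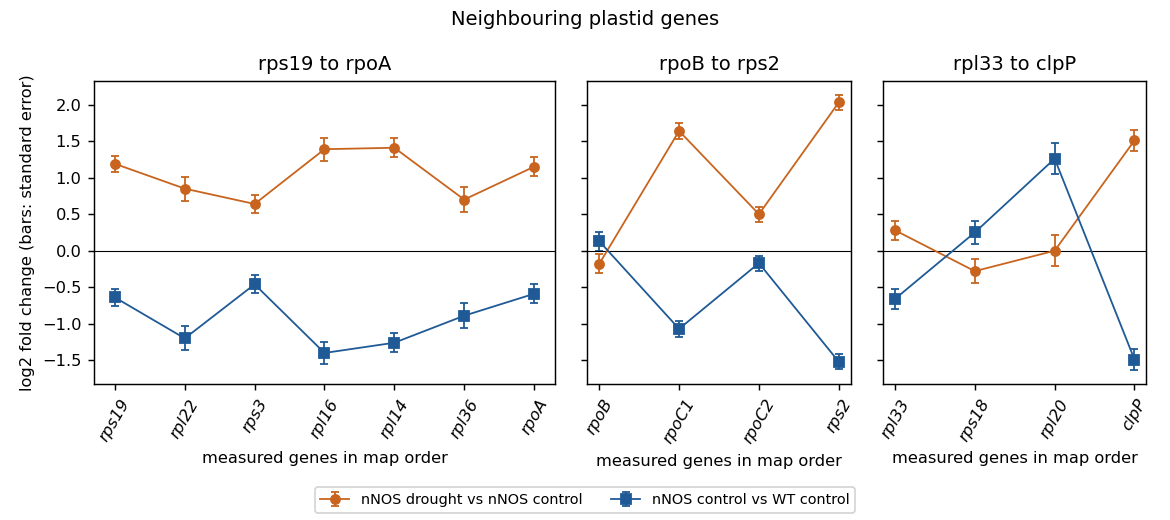
Log2 fold changes with standard errors (bars) are given for members in map order along 3 stretches of the plastid genome, in orange circles for nNOS drought versus nNOS control and in blue squares for nNOS control versus WT control. In the stretch from rps19 to rpoA all blue points are below 0 and all orange points above it, and in the stretch from rpl33 to clpP the blue points range from -1.49 at clpP to 1.26 at rpl20.

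The nuclear genes that work with these products were thinly covered by the annotation used here. Of the 9 phage-type polymerases and sigma factors, 1 was listed, RPOTmp, a NEP of mitochondria and plastids. It was higher in nNOS control leaves than in WT control leaves by 0.56 (SE 0.15, adjusted p = 0.0162). This came from a dim probe set, with a mean of 4.36 in nNOS control leaves and 3.79 in WT control leaves. Of 10 nuclear Clp subunits, 2 were listed, of which CLPP4 was lower, at -0.36 (SE 0.108, adjusted p = 0.0284), and CLPR3 did not pass at 0.07 (adjusted p = 0.691). Of 29 nuclear genes for plastid ribosomal proteins, 5 were listed, with a median log2 fold change of -0.01. Among these PRPL5 was lower, at -0.63 (SE 0.118, adjusted p = 0.00266), PRPL34 was higher by 0.42 (SE 0.105, adjusted p = 0.0118), and PRPL3, PRPL17 and PRPL29 did not pass. None of the 12 proteins associated with PEP and none of the 4 nuclear subunits of the acetyl-CoA carboxylase was listed.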

How the data were processed

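Leaf RNA was hybridized to 8 arrays, 2 per group. The authors read the scans with the Command Console software of Affymetrix and deposited normalized log2 values, and the normalization and probe summarization are not given in the sources used here. The methods name affylmGUI with thresholds on p and on the log2 fold change. From the deposited log2 values the 4 group means were fitted to the 8 arrays with limma 3.58.1 (R 4.3.3) and moderated with eBayes, and p-values were Benjamini-Hochberg adjusted over all 22810 probe sets, after which 64 control probe sets were left out of counts. A call needed an adjusted p of 0.05 or less and a difference of 2-fold or more, which is a log2 fold change of 1 in either direction. No filter on low values was applied. Of the 22 members, 20 were at or above the median signal of all probe sets, and rps14 and rpoB were below it. The fit was tested on simulated data for nNOS control versus WT control (22810 probe sets, 200 changed), where 99% of the changed probe sets were recovered with 0 false calls. All planted changes were larger than the 2-fold threshold, and the remaining probe sets had no planted change. The simulation therefore does not show how reliable calls near that threshold are.

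Genes were named from the platform annotation, and all 22 members matched RefSeq (TAIR10.1), which gave the order of neighbours. Each member is named, and values on every array are given for the 2 largest and the smallest change of each role class in nNOS control versus WT control and for every NEP member. The array values of rpl20, rpl22 and rpl33, and those of rps16 and rps18 in the control groups, were added after the values were seen. Apart from background, non-members were to be named only from lists, up to 4 per list. All 5 nuclear genes listed for plastid ribosomal proteins were named, however. The atp, pet and ndh genes, cemA and ycf4 were named after the values were seen. The members and lists were chosen with earlier results of these data known. The number of arrays limits the precision, and no 2 arrays held identical values. The median SD over the members was 0.162 in nNOS drought, 0.148 in nNOS control, 0.0781 in WT drought and 0.0651 in WT control. Alternatives covered the thresholds, 3 normalizations, a filter on dim probe sets, the moderation, the arrays in the fit, array weights, the replicate number as a block, the probe set rule, the NEP list and leaving out each array. Adding the repeat-copy genes, leaving rpoB out of the NEP members and leaving out both nNOS control arrays were chosen after seeing the data.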

Additional observations from a re-analysis of the deposited data

Results flagged for a closer look

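The drought response differed between nNOS and WT plants, by the test of the interaction itself, in 7 members, all with a positive interaction. Of all probe sets 1.89% passed with a positive interaction, and of the other 47 plastid genes 15 did. The response in nNOS minus that in WT was 1.55 for rps2, 1.41 for rpoC1, 1.20 for clpP, 1.11 for rpl16, 1.05 for rpl14, 0.91 for matK and 0.61 for rps4 on the log2 scale, each with a limma adjusted p of at most 0.05. The adjusted p was 0.0154 for matK and 0.0426 for rps4. As given above, the results for clpP, rpl16, rpl14, matK and rps4 depended on single arrays.

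Control probe sets, which were part of the fit and the adjustment of p-values but left out of the counts, also differed between groups. The mean of the 24 poly-A controls was higher in nNOS control leaves than in WT control leaves by 2.31 on the log2 scale, and the 25S ribosomal RNA control by 1.10 (SE 0.118, limma adjusted p = 0.000136). With 2 arrays per group no test for a single outlying array could be made.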

How the results depend on the processing

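No member changed direction in a comparison in which it had passed under any alternative tried. Without the fold threshold 17 members passed in nNOS control versus WT control, 16 in nNOS drought versus nNOS control, 3 in WT drought versus WT control and 3 in nNOS drought versus WT drought. At an adjusted p of at most 0.01 the interaction was called in 2 members. The difference between the medians of NEP members and photosystem genes was -0.96 after quantile normalization, -0.99 after cyclic loess and -0.79 with the shorter NEP list. The cause was not tested. Leaving out single arrays gave 6 to 8 calls in nNOS control versus WT control, 6 to 11 in nNOS drought versus nNOS control, 0 in WT drought versus WT control and in nNOS drought versus WT drought, and 2 to 6 for the interaction. Over the same fits the median of the members ranged from -0.62 to -0.55 in nNOS control versus WT control and from 0.67 to 0.99 in nNOS drought versus nNOS control. The class difference ranged from -1.25 to -0.94. Centring the arrays on their medians moved the median of all probe sets to 0.11 in nNOS control versus WT control, and that of the members to -0.51. With the 6 repeat-copy genes added, 19 of 28 genes were lower and 3 higher in nNOS control versus WT control.

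Replicate numbers were shared between groups but the arrays did not deviate together by number, with correlations of -0.12 to 0.12. With the replicate number as a block, 8 members were called in nNOS control versus WT control, 9 in nNOS drought versus nNOS control, 0 in both other comparisons and 6 for the interaction, with accD as the sixth, and rps4 no longer passed in the interaction (adjusted p = 0.0566).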
